A study of Aptenodytes patagonicus with 7 samples.

Results

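Ubiquitin conjugating enzymes and deubiquitinases, the enzymes that attach ubiquitin to proteins and take it off again, were followed in breast muscle (pectoralis) taken from young king penguins. The members were the genes whose symbol in the chicken annotation of the array begins with UBE2, with USP and a digit, or with UCHL. This gave 69 genes of the 12920 genes measured, namely 24 UBE2, 42 USP and 3 UCHL genes. They carried 171 of the 36897 probe sets. Each gene was represented by its probe set with the highest mean over all birds, except that all 3 probe sets of UCHL1 were kept, which made 71 member probe sets. Of the 69 symbols, 61 also stand in the annotation of the king penguin genome. The other 8 are UBE2E1, UBE2R2, UBE2R2L, UBE2U, USP12-like, USP41, USP6 and USP9Y, and they are used as the array names them.

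The muscle came from wild juveniles of the 2 groups of the study, each bird biopsied once under isoflurane and measured on its own chicken array. The never-immersed group (NI) held 4 birds, 3 females and 1 male (NI4), caught shortly before they first entered cold sea water. The sea-acclimated group (SA) held 3 birds, 2 females and 1 male (SA3), caught after acclimation to life at sea was complete. The birds of the groups were different animals and their ages beyond the juvenile stage are not given in the sources used here, so that acclimation and age cannot be told apart. All values are log2 intensities of a single chicken probe per probe set, without subtraction of background. Levels were therefore compared between birds for the same probe set and not between genes. Means over all birds also served to choose probe sets and some of the genes named with values. As a further exception, and only as a rough check, the tissue label was set against the levels of 9 measured myofibre markers. Of these, 8 had mean log2 intensities from 11.7 (DES, the intermediate filament desmin) to 15.3 (ACTA1, skeletal muscle actin), and PVALB, the calcium buffer parvalbumin, was at 8.45. The value of 15.3 is also the highest on every array, which quantile normalization makes equal.

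Ubiquitin is a small protein that is activated by an E1 enzyme, passed to an E2 conjugating enzyme and joined to a lysine of the target with the help of an E3 ligase. The UBE2 genes encode the E2 enzymes, which help decide whether a target receives a single ubiquitin or a chain, and of which linkage. Deubiquitinases of the USP and UCHL families cut ubiquitin off, either to rescue a protein from the proteasome, to end a signal or to recover ubiquitin itself. In skeletal muscle the pathway is best known for the breakdown of myofibrillar proteins during fasting and disuse. UCHL1 is best known as an abundant protein of neurons.

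No member gene was called between SA and NI at the probe set with the highest mean, and UCHL1 was called higher in SA birds at another of its 3 probe sets. The test was limma across all 36897 probe sets with Benjamini-Hochberg adjustment and a threshold of 0.10. Of the 71 member probe sets, 1 was called higher in SA and 0 were called lower. Over all probe sets 0.417% were called higher, 0.65% lower and 1.07% either way, and the single call among the members is near that background. In numbers, 154 probe sets were called higher and 240 lower. The study's text gives the same counts with the directions exchanged, the larger number being for genes up after acclimation. Which of the 2 is right was not settled here. Every direction given here, that of UCHL1 too, rests on the group labels of the arrays. The groups did not overlap in 3 of the 71 member probe sets (4.23%), against 10.3% of all probe sets. At an unadjusted p under 0.05 from limma, 1 of the 69 genes was higher (UCHL5) and 2 were lower (USP3 and USP10), 4.35% of the members against 12.4% of all genes. This was a biopsy of whole muscle, in which fewer cells of a type and less RNA per cell cannot be told apart.

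The 3 probe sets of UCHL1 are called here the first, the second and the third by their mean over all birds, from high to low. The one that rose was the second, for which the study listed primers for quantitative PCR. Both primer pairs are shown because they mark the stretch of UCHL1 that the study pursued, first in a chicken design and then in a penguin-specific design. Sequences are written 5′ to 3′, and capitals mark the bases that a chicken primer shares with a penguin primer.
Chicken design, 5′ primer: GTCGGGTTGAGGACAACAGT
Chicken design, 3′ primer: tTGTGCCATGGTTTACAGGA
Penguin design, 5′ primer: TGTGCCATGGTTTACAGGAaatggc
Penguin design, 3′ primer: tGTCGGGTTGAGGACAACAGTgtg
All 20 bases of the chicken 5′ primer lie within the penguin 3′ primer, which has 24 bases. Of the 20 bases of the chicken 3′ primer, 19 form the start of the penguin 5′ primer, which has 25 bases. The designs therefore share both annealing stretches, with the names of the ends exchanged. The study chose this probe set among its own calls on these arrays, so that its selection is not independent evidence of its direction. The study also ran quantitative PCR on the same RNA samples, and reports that most of the genes it tested changed in the direction of the arrays. Its measurement of UCHL1 is not reported here.

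At the second probe set the log2 intensities of UCHL1 were 7.23, 7.40, 7.74 and 7.31 in the 4 NI birds and 10.67, 9.52 and 8.76 in the 3 SA birds. Every SA bird lay above every NI bird, with 1.02 log2 units between the lowest SA and the highest NI value. The NI birds had a mean of 7.42 ± 0.223 (SD, n = 4), and the mean of the SA birds was 9.65 ± 0.961 (SD, n = 3). The difference was 2.23 log2 units (SE 0.37, 95% interval 1.40 to 3.05, limma adjusted p = 0.0400), and the SD between the SA birds was the larger. The fit takes the same variance for both groups and draws it toward that of the other probe sets. The SE and the interval therefore do not carry the full spread of the SA birds. These intensities include background, and no ratio of transcript amounts can be read from them. The NI mean was low for these arrays, whose lowest values were from 6.44 to 6.49 and whose medians were from 8.58 to 8.59. How much of the NI signal was above background was not tested. The difference was 2.64 among the females and 1.45 between the single male of each group. A two-sided exact permutation test, in which the birds can be split in 35 ways, gave p = 0.0286, the smallest it can give. It was 1 of 3 such tests. It rests on the same separation of the groups, which 10.3% of all probe sets also showed, and is no further support. The call was lost on leaving out NI1 (difference 2.16, limma adjusted p = 0.121), NI2 (2.22, 0.135) or SA2 (2.29, 0.108).

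The other 2 probe sets of UCHL1 were not called. At the first probe set, the one with the highest mean, the log2 intensities were 8.56, 8.53, 8.80 and 8.60 in NI and 8.77, 8.92 and 8.62 in SA. The groups overlapped, and the difference was 0.15 (SE 0.12, 95% interval -0.13 to 0.43, limma adjusted p = 0.769, exact permutation p = 0.229). At the third they were 6.85, 7.04, 7.07 and 7.17 in NI and 7.05, 7.55 and 7.27 in SA. The groups overlapped here too, with a difference of 0.26 (SE 0.14, 95% interval -0.06 to 0.58, limma adjusted p = 0.609, exact permutation p = 0.171). The third probe set was dim, with a mean of 7.14 over all birds, so that background could hide a change there. The upper limits of both intervals lie below the lower limit at the second probe set. Whether the 3 probes respond alike to the transcript was not tested. The bird with the highest value was SA1 at the probe set that rose and SA2 at the other ones. The mean of the 3 probe sets differed by 0.88 (SE 0.15, limma adjusted p = 0.0537 over the means of 12920 genes). This mean contains the second probe set and is no support apart from it.

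**Figure D1:**
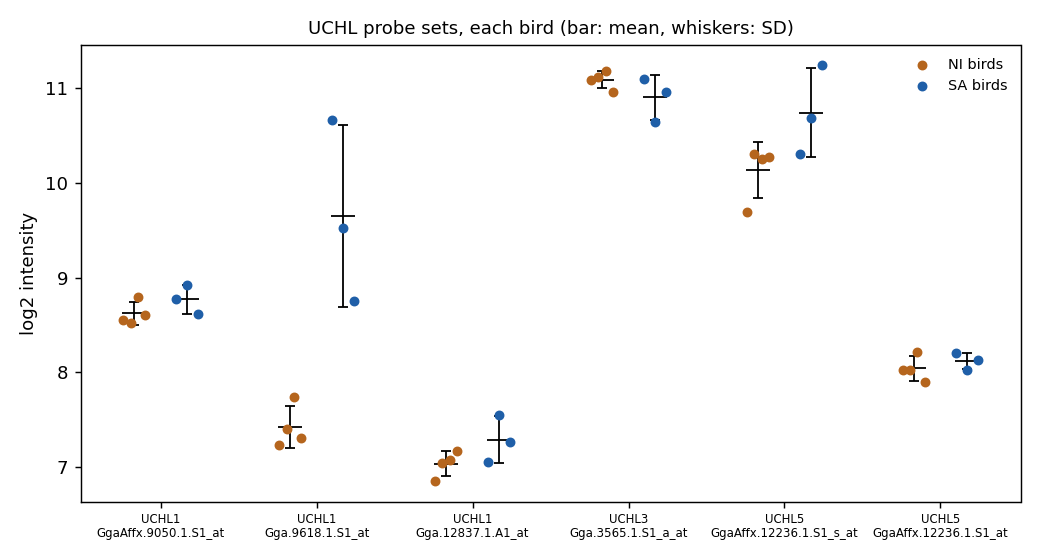
Log2 intensity of each UCHL probe set in each bird, NI and SA side by side, with bars for the group mean and whiskers for the SD. The SA birds stand at 8.76 to 10.67 and the NI birds at 7.23 to 7.74 for the second UCHL1 probe set, and the groups overlap at every other UCHL probe set shown.

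Markers of nerve were read beside UCHL1. Of 15 measured nerve and Schwann cell genes of 18 listed, 0 were higher in SA and 1 was lower, MBP, the myelin basic protein (difference -1.24, limma adjusted p = 0.0377). NEFL, the light neurofilament, differed by -0.67 (limma adjusted p = 0.115), and MAP2, a protein of neuronal microtubules, by 0.58 (limma adjusted p = 0.228). Over the 15 genes, 7 differences were positive and 8 negative, with a median of -0.07. The summed linear intensity of the list was 14763 to 15656 in NI birds and 13614 to 14494 in SA birds, lower in every SA bird. Such a sum is weighted to the brightest genes of the list. Of 12 fibroblast markers, 3 were lower (COL1A1, COL1A2 and FN1), with summed intensities of 20956 to 32589 in NI and 10310 to 16077 in SA. Among myofibre markers TNNC2 was lower, among 4 erythroid markers TFRC was lower and among 7 adipocyte markers RBP7 was higher, and none of the markers of endothelium (8), white blood cells (9), smooth muscle (7) or satellite cells (7) was called. The part of these shifts in the values of the members was not tested.

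UCHL3 and UCHL5, the other UCHL genes, were not called. UCHL3 encodes a hydrolase that frees ubiquitin from small adducts and also acts on the related modifier NEDD8. Its log2 intensities were 11.09, 11.12, 11.18 and 10.97 in NI and 11.10, 10.64 and 10.96 in SA, and the groups overlapped. The difference was -0.19 (SE 0.13, 95% interval -0.49 to 0.11, limma adjusted p = 0.719). UCHL5 encodes a deubiquitinase that sits on the proteasome and on a chromatin remodelling complex. At its probe set with the higher mean it had 9.69, 10.31, 10.25 and 10.28 in NI and 10.30, 10.69 and 11.24 in SA, with SA1 just below the highest NI bird. The difference was 0.61 (SE 0.23, 95% interval 0.09 to 1.13, unadjusted p = 0.0258 and adjusted p = 0.368, both from limma). The other probe set of UCHL5 differed by 0.08 (limma adjusted p = 0.883).

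Over the 69 genes at their probe set with the highest mean, the median SA minus NI difference was 0.03 log2 units, against 0.003 over all genes. The differences ran from -0.44 to 0.61, with quartiles of -0.10 and 0.15, and 37 were positive and 32 negative. The difference was under 0.5 in size in 67 of the 69 genes (97.1%, against 92.5% of all genes). The 95% interval lay within a 2-fold change of intensity in either direction in 65 of them (94.2%, against 91.9% of all genes). It lay within 1.5-fold in 46 (66.7%, against 66.8%). Intensities include background, so these limits do not bound changes in transcript amounts. The 4 genes whose intervals reached past 2-fold were UCHL5, USP48, USP25 and UBE2R2. Birds of a group differed with a median SD of 0.202 (NI) and 0.194 (SA), against 0.178 in each group over all genes.

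**Figure D2:**
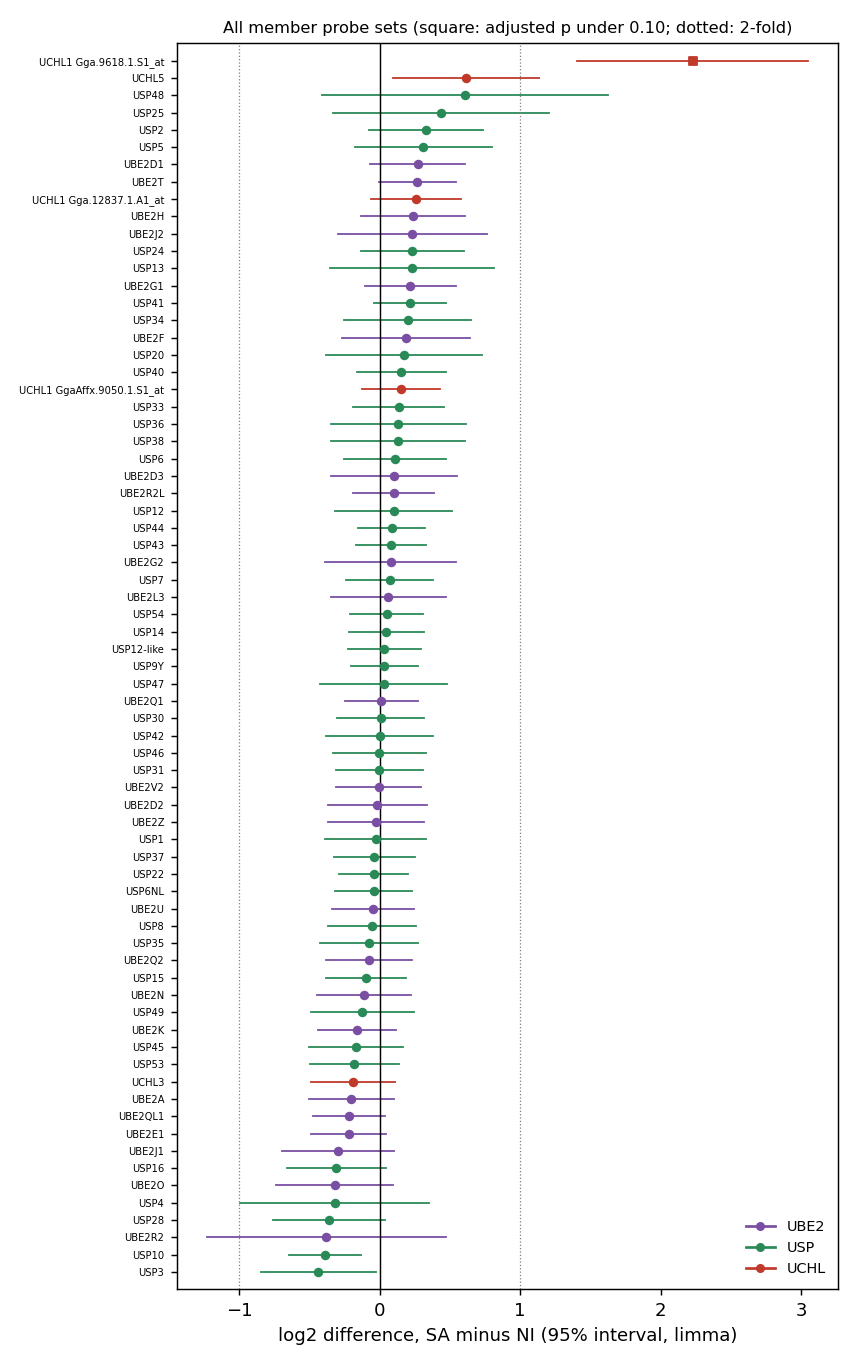
SA minus NI log2 difference of the 71 member probe sets, ordered by size, with 95% intervals from limma. Colours show the UBE2, USP and UCHL families, and dotted lines a 2-fold change of intensity. The second UCHL1 probe set stands at 2.23 as the only called probe set, and all others lie between -0.44 and 0.61.

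Among the 24 E2 genes none was called, 11 differences were positive and 13 negative, and the median was -0.01 (range -0.38 to 0.27). The enzymes of the D and E families, which serve a wide range of E3 ligases, were UBE2D1, UBE2D2, UBE2D3 and UBE2E1, with 2 positive and 2 negative differences. UBE2D1 had 9.37, 9.54, 9.14 and 8.94 in NI and 9.56, 9.48 and 9.52 in SA. The SA birds were close together within the upper part of the NI range and just above it, and the difference was 0.27 (SE 0.15, limma adjusted p = 0.606). The second probe set of UBE2D1 differed by -0.22. UBE2D3 had 12.57, 12.26, 12.30 and 12.33 in NI and 12.996, 12.13 and 12.29 in SA, with the highest and the lowest value both in SA birds. Its difference was 0.10 (SE 0.20, limma adjusted p = 0.918). UBE2D2 differed by -0.02 and UBE2E1 by -0.22.

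The E2 enzymes tied to the degradation of misfolded proteins at the endoplasmic reticulum, UBE2G2, UBE2J1 and UBE2J2, and their relative UBE2G1, had a median difference of 0.15. UBE2G1, which also extends ubiquitin chains with cullin ligases, had 12.11, 12.13, 11.81 and 11.97 in NI and 12.48, 12.01 and 12.18 in SA. SA1 and SA3 lay above the NI birds and SA2 among them, with a difference of 0.22 (SE 0.14, limma adjusted p = 0.687). UBE2J1 and UBE2J2, both anchored in the reticulum membrane, stood at -0.30 and 0.23, and UBE2G2 at 0.08. A dim probe set of UBE2G2, with a mean of 6.95, differed by 0.38 without overlap (SE 0.10, limma adjusted p = 0.187). The rest of its probe sets differed by -0.04, -0.11 and 0.14. None of these passed the test.

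UBE2N builds the chains used in signalling and DNA repair together with a partner such as UBE2V2, which lacks a catalytic cysteine. The log2 intensities of UBE2N were 11.97, 11.94, 11.95 and 11.96 in NI and 12.12, 11.50 and 11.91 in SA. The NI birds were nearly equal, whereas the SA birds lay on both sides of them, and the difference was -0.11 (SE 0.15, limma adjusted p = 0.871). UBE2V2 differed by -0.01. UBE2A, a RAD6 homologue of DNA damage tolerance and histone marking, differed by -0.20 (limma adjusted p = 0.696).

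UBE2T, the E2 of the Fanconi anaemia pathway of crosslink repair, was 1 of the 2 genes whose groups did not overlap. These were 2.90% of the 69 genes, against 11.5% of all genes at their probe set with the highest mean. UBE2T is described for its values and not as a call. UBE2T had 8.02, 7.80, 7.85 and 7.62 in NI and 8.13, 8.03 and 8.11 in SA, and the lowest SA bird was next to the highest NI bird. The difference was 0.27 (SE 0.12, 95% interval -0.005 to 0.54, limma adjusted p = 0.487). UBE2F, which passes NEDD8 rather than ubiquitin to cullin ligases, differed by 0.19 (limma adjusted p = 0.833).

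UBE2R2L, at 0.10, was placed in no role group. The other 10 E2 genes had 3 positive and 7 negative differences, and the most negative were those of UBE2R2 and UBE2O. UBE2R2 is a chain-building partner of cullin ligases. It had 9.02, 9.19, 9.74 and 10.38 in NI and 9.38, 8.42 and 9.80 in SA, a wide spread in both groups, and the difference was -0.38 (SE 0.38, 95% interval -1.23 to 0.47, limma adjusted p = 0.817). UBE2O is a large enzyme that recognises its targets without a separate E3 ligase and, in mammalian red cells, clears ribosomes and unassembled globin. It had 8.76, 8.71, 9.03 and 9.44 in NI and 8.47, 8.77 and 8.76 in SA, with NI3 and NI4 above all SA birds. The difference was -0.32 (SE 0.19, limma adjusted p = 0.634). UBE2QL1 differed by -0.22, UBE2K, which makes chains read by the proteasome, by -0.16, and UBE2H by 0.24, and none of them passed the test.

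Among the 42 USP genes none was called, 24 differences were positive and 18 negative, and the median was 0.03. The 3 genes tied to free ubiquitin chains and the proteasome all had positive differences, none of which passed the test. USP5, which takes apart unanchored chains, had 9.83, 9.44, 9.33 and 9.40 in NI and 10.35, 9.45 and 9.65 in SA. SA1 stood above all other birds, and the difference was 0.31 (SE 0.22, limma adjusted p = 0.710). USP13, the closest relative of USP5, had 12.30, 11.39, 12.34 and 11.44 in NI and 12.36, 12.05 and 11.88 in SA. The NI birds fell into a high and a low pair, SA1 stood beside the high pair and the other SA birds stood between the pairs, and the difference was 0.23 (SE 0.26, limma adjusted p = 0.842). USP14, a deubiquitinase bound to the proteasome, differed by 0.05.

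The 8 genes of chromatin and the nucleus had 3 positive and 5 negative differences. USP3, a histone deubiquitinase, had the most negative difference of all members, and it has a single probe set. Its log2 intensities were 8.27, 8.23, 8.005 and 8.17 in NI and 8.18, 7.37 and 7.64 in SA. SA2 and SA3 were below every NI bird and SA1 was among them. The difference was -0.44 (SE 0.18, 95% interval -0.85 to -0.03, limma adjusted p = 0.435). USP16, which removes ubiquitin from histone H2A, stood at -0.31 (limma adjusted p = 0.555), while USP22, the deubiquitinase of the SAGA complex, and USP7, which acts on the p53 ligase MDM2, were at -0.04 and 0.07.

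The 7 genes of DNA damage and their relatives had 3 positive and 4 negative differences and included USP48 and USP28. USP48 had 9.76, 10.32, 11.02 and 10.56 in NI and 9.80, 11.80 and 11.47 in SA. SA2 and SA3 were above every NI bird and SA1 was next to the lowest, so that the difference of 0.61 had an SE of 0.45 (95% interval -0.41 to 1.63, limma adjusted p = 0.735). The other probe set of USP48 differed by -0.19 with no overlap between the groups (limma adjusted p = 0.627). USP28, which stabilises MYC and takes part in the damage checkpoint, had 10.96, 10.55, 10.96 and 10.48 in NI and 10.51, 10.56 and 10.07 in SA. SA3 lay below all NI birds and the others within their range, with a difference of -0.36 (SE 0.18, limma adjusted p = 0.541).

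USP25 is a paralogue of USP28 with a splice form known from human muscle, and it had the largest positive difference of the 4 genes of mitochondria, reticulum and muscle. At its probe set with the highest mean it had 12.42, 11.88, 11.49 and 11.46 in NI and 13.08, 11.61 and 12.06 in SA, with SA1 highest and the rest within the NI range. The difference was 0.44 (SE 0.34, 95% interval -0.33 to 1.21, limma adjusted p = 0.752). Its other 3 probe sets differed by 0.55, 0.06 and 0.75. The last of these, the dimmest of the 4, had 8.38, 8.13, 7.65 and 7.56 in NI and 8.60, 8.51 and 8.93 in SA without overlap (SE 0.21, limma adjusted p = 0.196), and it was named after its values were seen. USP30, a deubiquitinase of the outer mitochondrial membrane that counters mitophagy, differed by 0.01.

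The 7 genes of membranes and trafficking had 5 positive and 2 negative differences and held USP10 and USP2. USP10 deubiquitinates p53 and the chloride channel CFTR, and binds the stress granule protein G3BP1. Its log2 intensities were 12.39, 12.34, 12.24 and 12.35 in NI and 12.01, 11.77 and 12.04 in SA. Every SA bird was below every NI bird, and the difference was -0.39 (SE 0.11, 95% interval -0.64 to -0.13, limma adjusted p = 0.215), the lowest adjusted p of the 69 genes. The other 3 probe sets of USP10 differed by -0.65, 0.51 and -0.14, and the groups overlapped in each of them. USP2, known for regulation by the circadian clock, had 10.70, 10.43, 10.96 and 10.76 in NI and 11.34, 11.10 and 10.68 in SA. SA1 and SA2 were above every NI bird and SA3 among them, and the difference was 0.33 (SE 0.18, limma adjusted p = 0.596). Its other probe set gave 0.34 with another order of the SA birds, since SA1 was lowest there and SA2 highest.

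USP4 and USP15, paralogues that act on receptors of the TGF-beta pathway, had differences of -0.32 and -0.10. USP4 had 8.59, 8.62, 8.07 and 8.23 in NI and 8.90, 7.59 and 7.69 in SA. SA1 was above and the other SA birds below all NI birds, so that the SE was 0.30 (limma adjusted p = 0.801). USP53 and USP54, long listed as members without catalytic activity, were at -0.18 and 0.05. USP6NL, at -0.04, bears the symbol but encodes a GTPase-activating protein of RAB proteins and no deubiquitinase. USP12-like, at 0.03, was placed in no role group. The remaining 7 USP genes, among them USP24 (0.23) and USP34 (0.20), had 5 positive and 2 negative differences and none passed the test.

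**Figure D3:**
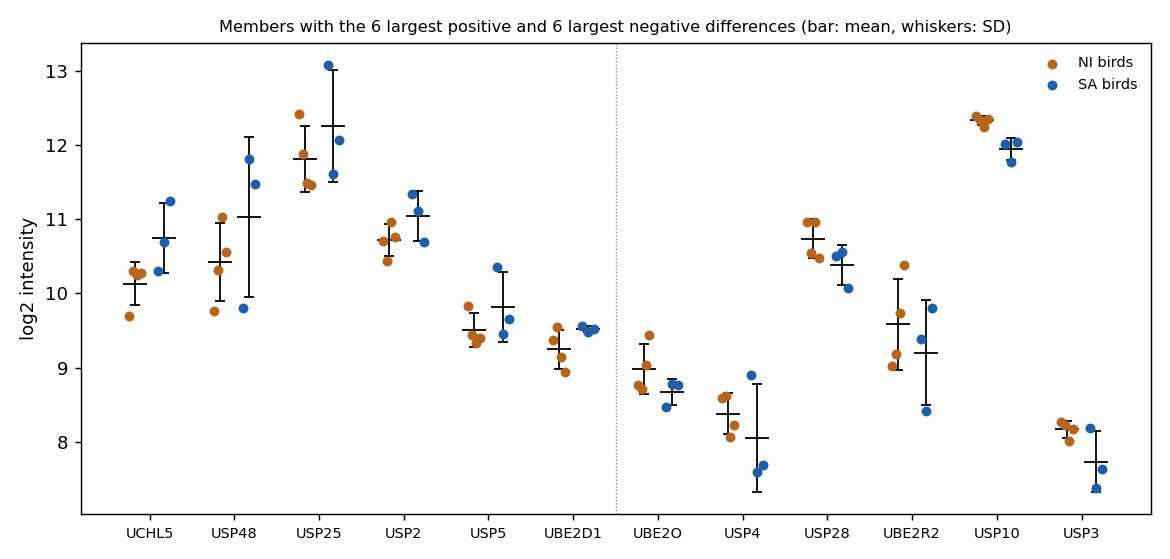
Log2 intensity in each bird of the 6 member genes with the largest positive and the 6 with the largest negative differences, at the probe set with the highest mean, with bars for the mean and whiskers for the SD. Of these genes, USP10 alone separates the groups, with NI birds from 12.24 to 12.39 and SA birds from 11.77 to 12.04.

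Several probe sets were present for 47 of the 69 genes, at most 8 for a gene, and 22 genes had 1. All probe sets of a gene had differences of one sign in 19 of the 47 genes (40.4%), against 37.2% of the 7096 genes of the array with several. The range between the highest and the lowest difference of a gene had a median of 0.26 log2 units, against 0.27 over all genes, and it was under 0.5 in 39 of the 47 genes. It was 2.08 for UCHL1 and 1.16 for USP10, the 2 genes past 1 log2 unit. USP8, a deubiquitinase of endosomal sorting, ranged over 0.71, with 1 of its 3 probe sets at -0.71 (limma adjusted p = 0.471) and the one with the highest mean at -0.05. Over all 171 probe sets with a member symbol, 1 was called, where 1.07% of all probe sets were, and the groups did not overlap in 10 (5.85%), against 10.3% of all probe sets.

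**Figure D4:**
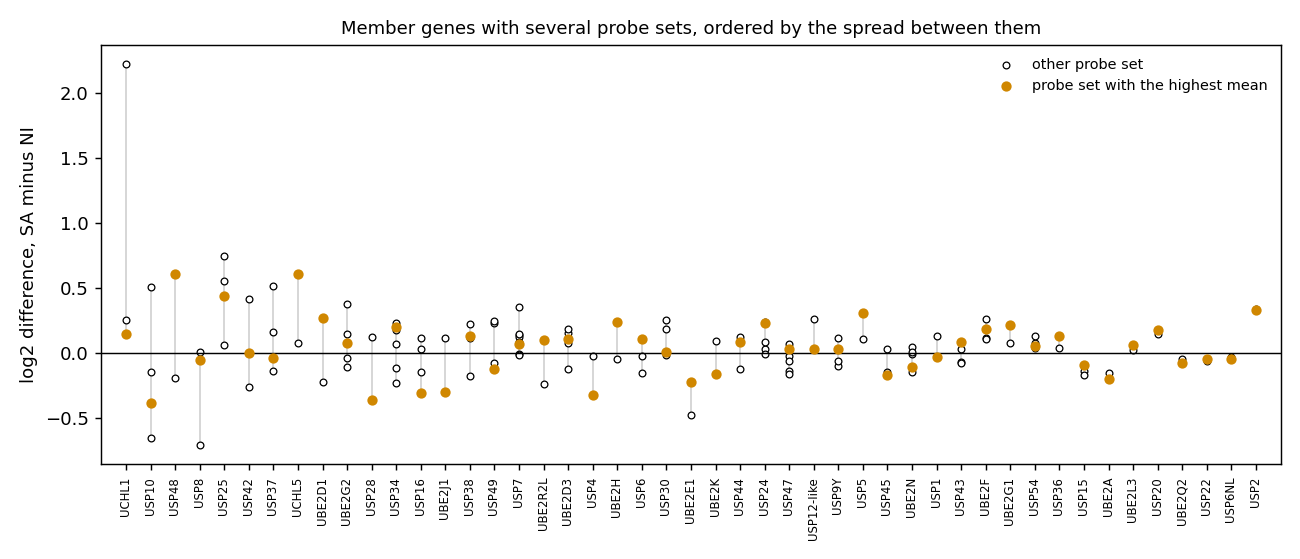
SA minus NI log2 difference of every probe set of the 47 member genes with several, filled for the probe set with the highest mean and open for the others, ordered by the range within a gene. UCHL1 ranges over 2.08 and USP10 over 1.16, and 39 genes range over less than 0.5.

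The highest and the lowest values of the 69 genes were unevenly spread over the birds. SA1 was the highest bird for 18 genes, NI1 for 15 and NI3 for 3. SA2 was the lowest for 17, NI4 for 14 and SA3 for 5. These counts were not compared with those over all genes. The median deviation of a bird from the mean of a gene was between -0.08 (NI4) and 0.07 (SA1). The medians of all values on the arrays were from 8.58 to 8.59, and Pearson's r between arrays over all probe sets, which are not independent, was from 0.941 to 0.979.

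Of 114 measured genes on 6 lists of other parts of the ubiquitin system, 2 were called (1.75%), both lower in SA, near the 1.55% called of all genes. Of 21 measured genes of the cullin-RING ligase core, 1 was lower and 0 were higher (median difference -0.06). It was RNF7, the RING subunit that works with CUL5 and, in mammals, receives UBE2F. RNF7 had 9.80, 9.89, 9.84 and 9.86 in NI and 9.03, 9.42 and 8.83 in SA, all SA birds below all NI birds. It fell by 0.755 log2 units (SE 0.145, limma adjusted p = 0.0714), and CUL5 differed by -0.11 (limma adjusted p = 0.831).

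Of 19 genes of other deubiquitinase families, 1 was lower and 0 were higher (median 0.01). It was ATXN3, a deubiquitinase that trims long chains and works with the segregase VCP. ATXN3 had 9.80, 9.84, 9.67 and 9.81 in NI and 9.38, 8.74 and 8.66 in SA, again without overlap, and fell by 0.85 (SE 0.17, limma adjusted p = 0.0841). None was called of 8 ubiquitin and E1 genes (median 0.10), 29 muscle E3 ligases (-0.08), 18 genes of ubiquitin-like modifiers (0.03) and 19 segregase, shuttle and partner genes (0.05). The median over all genes was 0.003.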

How the data were processed

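RNA of pectoralis biopsies from 4 NI and 3 SA penguins, all different animals, was hybridized to 7 chicken arrays. The values deposited by the authors are log2 intensities: in each probe set they kept the perfect-match probe with the highest rank sum, among probes above background on at least 1 array, and quantile normalized the arrays. No background subtraction is described, so that the values include background signal. The submitters' processing notes name limma. Groups and sexes came from the labels.

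From the deposited log2 values, SA minus NI was fitted in R 4.3.3 with the lmFit and eBayes functions of limma 3.58.1 (5 residual degrees of freedom, prior of 4.34) on all 36897 deposited probe sets, which that step had already filtered, with no further filter. The Benjamini-Hochberg adjustment covered all of them, with a threshold of 0.10, as in the study's methods. The UCHL1 probe sets also had exact permutation tests. The code of the fit was run on simulated independent normal values with known changes. This checks the code and not how the fit performs on these arrays.

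Genes were named by the platform annotation for chicken. Of the probe sets, 26108 had 1 symbol, 171 had several and 10618 had none, and the last 2 kinds were not named. The members, roles, pathway lists and cell markers were chosen with earlier results of these data known. Members named with values were the UCHL genes, the 6 largest positive and 6 largest negative differences, and the 3 UBE2 and 3 USP genes with the highest means. In each role group, some or all of the 4 genes with the smallest p were named too. Of the pathway lists, called genes were named. UBE2R2L, USP12-like, USP22, USP7, USP8, CUL5, NEFL and MAP2, and single other probe sets, were added after their values were seen. Primer sequences were read from the study's supplementary table. A chicken probe can bind transcripts of related genes in the penguin, and 7 arrays limit the precision.

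The alternatives were each bird left out, a threshold of 0.05, a term for sex or for replicate number, array weights, a robust or a trended prior, median centring, cyclic loess, leaving out dim probe sets and other choices of probe set.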

Additional observations from a re-analysis of the deposited data

Results flagged for a closer look

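At the probe set of UCHL5 with the higher mean, NI1 lay apart from the other NI birds at 9.69, with its gap to the nearest of them taking 0.912 of the range of the 4 NI birds, above Dixon's 95% critical value. Of 20 probe sets examined in the NI birds this was the only one, and chance gives about 1 in 20 such groups.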

How the results depend on the processing

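UCHL1 at its second probe set was still called in 13 of 16 alternatives, with differences of 1.72 to 2.67 and limma adjusted p from 0.0285 to 0.135. Not all of these could change the call. The threshold of 0.05 used the same fit, and median centring left the difference at 2.23, since the array medians were nearly equal beforehand. The exceptions were the fits without NI1, NI2 and SA2, and the range of differences was that of the fits with single birds left out. This probe set was not tested in the fit without the probe sets under the median brightness, being among them. The calls among member probe sets and among those with a member symbol were therefore 0 in that fit. The other UCHL1 probe sets were never past the threshold, nor was any of 17 other members, chosen by size of difference or mean or as UCHL genes, in 287 values (lowest limma adjusted p 0.105). For the remaining members, UBE2T among them, only calls were counted under the alternatives. The called genes of the pathway lists and of the cell markers were not followed singly under them. RNF7 and ATXN3, with limma adjusted p of 0.0714 and 0.0841, do not pass a threshold of 0.05. Signs turned for UBE2D3 with array weights (-0.014) and, with single birds left out, for UBE2D3 (-0.16 to 0.28), UBE2N (-0.25 to 0.062) and UBE2R2 (-0.68 to 0.011). Array weights called 2 probe sets with a member symbol, the second being the dimmest of USP25 (0.89, limma adjusted p = 0.0815). Leaving out single birds gave 0 to 1 calls among the members. Over all probe sets, those called higher and lower were 327 and 439 with array weights, 48 and 127 at a threshold of 0.05, and 21 to 219 and 74 to 268 with single birds left out, lowest without NI2.

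With the replicate number as a replicate block, 174 were higher and 450 lower, and UCHL1 differed by 2.19 (limma adjusted p = 0.0393); no call among the members changed. NI4 is the only bird with its number, so that the block takes it out of the comparison. The differences are therefore those of the fit without NI4. With the block the limma adjusted p was 0.129 for UCHL5, 0.366 for USP48 and 0.362 for USP10. In the fit without NI4 and without the block it was 0.479, 0.820 and 0.391. With all birds and no block it was 0.368, 0.735 and 0.215. The deviations of same-numbered birds correlated at 0.29, -0.03 and 0.17. The birds are different animals and the numbers were not taken to pair them, but whether same-numbered arrays were processed together was not tested. With the mean of each gene's probe sets, the median difference over the 69 genes was 0.03, and with the 57 genes that have a plain probe set name it was -0.001. Dim probe sets limit what can be seen, since background was not subtracted.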
